A study of Homo sapiens with 12 samples.

Results

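The 38 genes described here are the aminoacyl-tRNA synthetases of human prostate cancer cells and their scaffold proteins. They were taken by gene symbol from the 60675 genes counted in each library. They comprised 19 cytosolic enzyme genes, 16 mitochondrial enzyme genes and 3 genes of non-catalytic scaffold proteins (AIMP1, AIMP2 and EEF1E1). All 38 passed the filter on low counts in every fit. Their counts ran from 43 (SARS2) to 32243 (IARS1) in a library, and fragments that fell on more than 1 gene, on either strand, were left uncounted.

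The study compared inhibition of the histone demethylases KDM1A and KDM7A in LNCaP cells, an androgen-dependent prostate cancer line, and in LNCaP:C4-2 cells (C4-2), a castration-resistant derivative of it. The 12 RNA-seq libraries fell into 6 groups of 2, given as biological replicates in the study's methods. All groups, controls included, had the synthetic androgen R1881 at 1 nM for 72 h with DMSO as vehicle, in medium with hormone-depleted serum. C4-2 cells had R1881 alone, R1881 with namoline (a KDM1A inhibitor, 50 µM), R1881 with TCE-5002 (a KDM7A inhibitor) or R1881 with both inhibitors (combination), and LNCaP cells had R1881 alone or the combination. TCE-5002 is given as 100 µM in the series text and at a lower dose in the study's methods, so its dose is uncertain.

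Aminoacyl-tRNA synthetases attach each amino acid to its transfer RNA, the step that sets the meaning of the genetic code. Cells carry separate nuclear genes for most of the cytosolic and mitochondrial enzymes, and the enzymes for glycine (GARS1) and lysine (KARS1) serve both compartments. Several cytosolic enzymes are held in a multi-synthetase complex by AIMP1, AIMP2 and EEF1E1. Many of the cytosolic genes are known targets of ATF4, the transcription factor that is translated when amino acids run short or other stresses slow protein synthesis, and ATF4 binds a short DNA element of the form TGATGNAA.

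Promoter sequences are shown because this element was common in the promoter windows of the cytosolic genes. A RefSeq window from 250 bases before to 50 after the transcript start (GRCh38.p14) was given for 33 of the 38 genes, and was absent for LARS1, VARS1, YARS1, AARS2 and VARS2. TGATGNAA, searched on both strands, stood in a window of 7 of 16 cytosolic genes (43.8%), 1 of 14 mitochondrial genes (7.14%) and 0 of 3 scaffold genes, against 4.46% of the 27305 genes in the table. The cytosolic genes were AARS1, CARS1, GARS1, IARS1, MARS1, NARS1 and TARS1, and the mitochondrial gene was YARS2. The matches of GARS1 and TARS1 lay in a window that was not the gene's most upstream, and their stretches are not printed. CACGTG, the palindromic E-box bound by MYC-family factors, stood in 1 of 16 cytosolic genes (IARS1), 3 of 14 mitochondrial genes (CARS2, EARS2 and MARS2) and 1 of 3 scaffold genes (AIMP2), against 8.77% of the table. No match of 1 motif overlapped a match of the other. The stretches below are written 5′ to 3′ on the gene's strand, and capitals mark the TGATGNAA match, which reads TTGCATCA where it lies on the other strand.
AARS1 (chr16:70289646-70289733, minus strand): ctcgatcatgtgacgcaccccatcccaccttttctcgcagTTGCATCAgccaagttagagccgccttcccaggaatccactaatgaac
CARS1 (chr11:3057418-3057465, minus strand): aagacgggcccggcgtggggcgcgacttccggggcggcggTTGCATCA
IARS1 (chr9:92293698-92293750, minus strand): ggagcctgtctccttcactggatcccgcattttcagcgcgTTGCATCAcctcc
MARS1 (chr12:57488024-57488071, plus strand): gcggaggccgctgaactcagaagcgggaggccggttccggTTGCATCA
NARS1 (chr18:57621815-57621862, minus strand): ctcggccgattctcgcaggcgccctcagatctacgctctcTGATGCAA
YARS2 (chr12:32756047-32756134, minus strand): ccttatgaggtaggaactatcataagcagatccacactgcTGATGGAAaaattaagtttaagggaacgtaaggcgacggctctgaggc
In IARS1, CARS1 and MARS1 the match ended within 6 bases of the transcript start, and in NARS1 it began 15 bases into the transcript. In AARS1 and YARS2 it began at positions -187 and -197 from the start. A match in these letters is a description of the sequence and not evidence of binding.

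Library totals ran from 14791602 to 20690819 counts. Levels are given as CPM, counts scaled so that libraries of unequal depth can be compared. Between the 2 replicates of a group the members differed by a median of 0.06 to 0.23 on the log2 scale, most in the C4-2 TCE-5002 group, where EEF1E1 differed by 0.64. The inhibited enzymes were transcribed in every library, KDM1A at 72.5 to 161 CPM and KDM7A at 52.5 to 283 CPM, and an inhibitor of activity does not have to lower its target's transcript. In these bulk samples fewer cells of a type and less RNA per cell cannot be told apart. The 4 libraries labelled LNCaP stood apart from C4-2 in more than treatment. Vimentin (VIM) was at 610 to 733 CPM in them and at 1.19 to 4.80 CPM in the 8 C4-2 libraries, while E-cadherin (CDH1) was at 33.4 to 44.6 CPM against 580 to 1010 CPM. The other mesenchymal markers did not all go the way of VIM. CDH2 (32.5 to 51.4 CPM against 0.0 to 0.06) and ZEB1 (36.0 to 43.4 against 0.195 to 6.26) were also higher in the LNCaP libraries. COL1A1 was lower in them (2.54 to 4.89 against 36.5 to 85.5), FN1 overlapped (29.6 to 40.5 against 9.14 to 41.9) and COL1A2 was at most 0.141 CPM. KLK3, the gene of prostate-specific antigen, was present in all 12 libraries, and 4 leukocyte markers summed to 0.178 to 4.01 CPM. In 1 of the LNCaP combination libraries (replicate 1) the sample name inside the file has namoline but no TCE-5002, against its label, so values of these groups are also given without it. In C4-2 the summed level of 8 luminal prostate markers moved with treatment, from 2520 to 2590 CPM with R1881 to 3470 to 3730 with namoline, 4920 to 5000 with TCE-5002 and 893 to 988 with the combination. The same sum in LNCaP was 774 to 849 CPM with R1881 and 302 to 399 with both inhibitors. Its part in the results below was not tested.

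In C4-2 cells with R1881 alone the cytosolic enzymes were the more abundant class per kb of annotated exon. That length joins all annotated exons of a gene and can exceed the length of a transcript, so ranks by it depend on the annotation. Their median was 55.8 CPM per kb of exon, against 8.15 for the mitochondrial enzymes. GARS1 (glycine) at 177 and 169 CPM per kb and EPRS1, the bifunctional enzyme for glutamate and proline, at 177 and 166, were the highest, and their libraries overlapped. SARS1 (serine) at 145 and 148 and AARS1 (alanine) at 148 and 144 came next and also overlapped. HARS1 (histidine) was the lowest cytosolic enzyme by this measure, at 13.2 and 13.3 CPM per kb, close to the scaffold gene EEF1E1. Its joined exons span 8.436 kb. In mean CPM HARS1 (111.7) stood above FARSA (52.88), FARSB (81.26) and QARS1 (98.55). IARS2 (isoleucine) stood far above the other mitochondrial enzymes at 76.4 and 77.4 CPM per kb, and the next was HARS2 at 18.5 and 17.0. SARS2 was the lowest of all at a mean of 1.76 CPM per kb. SARS2 shares 57.0% of its exonic length with other genes, among them MRPS12 on the opposite strand.

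Namoline lowered most cytosolic synthetase transcripts in C4-2 cells and raised mitochondrial ones. Of the 19 cytosolic enzymes, 12 fell, 4 rose and 3 did not pass the test, while of the 16 mitochondrial enzymes 9 rose, 0 fell and 7 did not pass. Here a gene rose or fell at an adjusted p-value under 0.05 in edgeR's quasi-likelihood test, and by that rule 35.0% of all 17702 genes tested were called, 18.7% higher and 16.3% lower. The median log2 fold change was -0.51 for the cytosolic and 0.41 for the mitochondrial enzymes, against -0.00 for all genes tested. At 2-fold or more, 6 cytosolic enzymes fell and 2 rose, and 1 mitochondrial enzyme rose, where 12.1% of all genes were called, 5.17% higher and 6.88% lower. No scaffold gene passed the test.

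**Figure D1:**
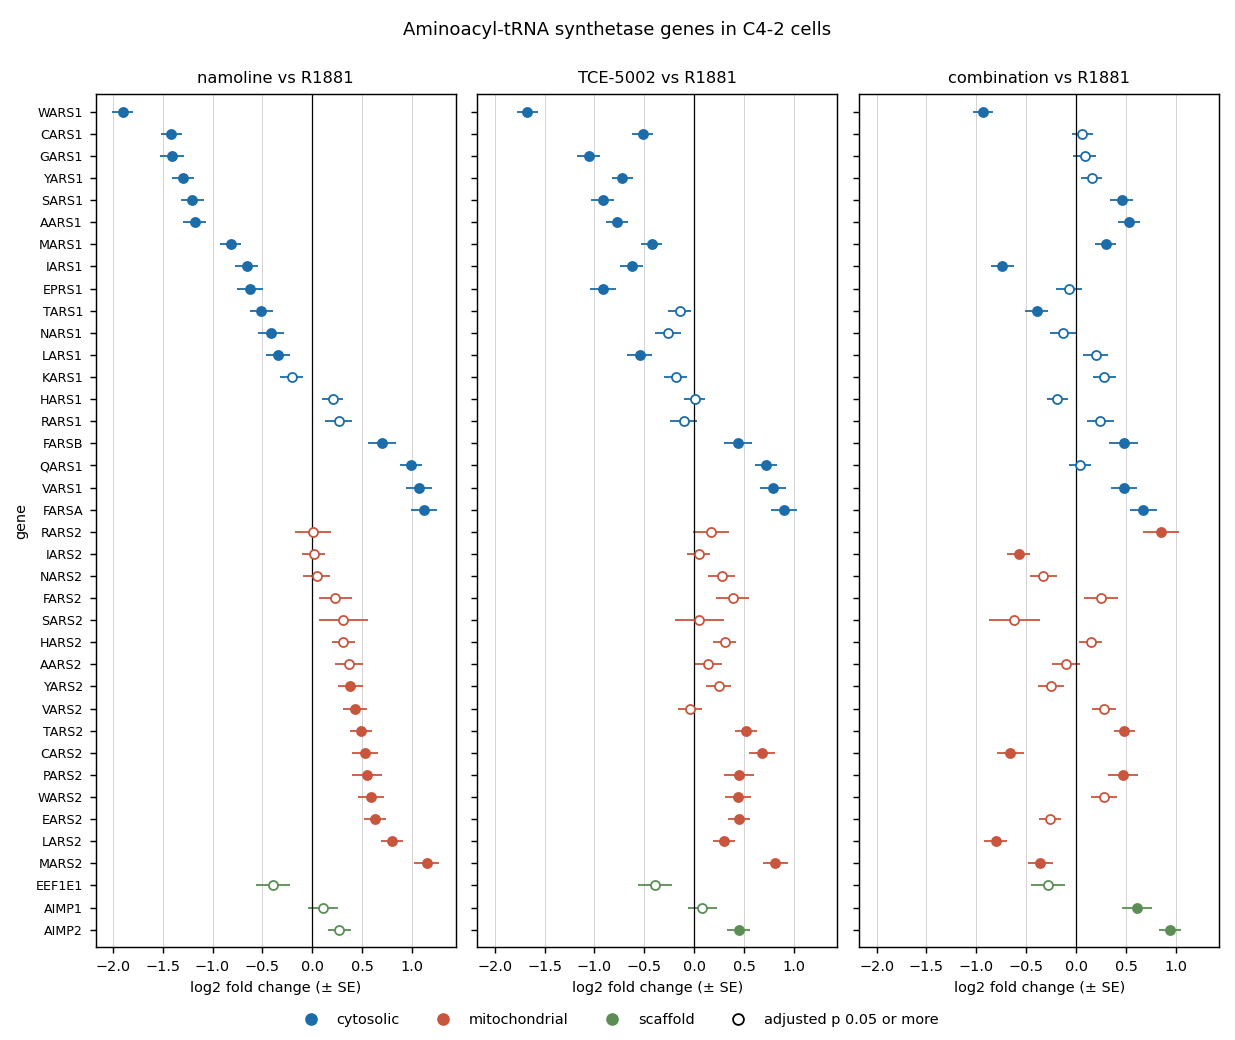
Log2 fold change (horizontal axis) of the 38 genes (rows) against R1881 alone in C4-2 cells, with namoline, TCE-5002 and the combination in separate panels. Points are fitted values, bars are 1 SE, colours give the class and open points have an adjusted p of 0.05 or more. Cytosolic enzymes reach -1.90 with namoline and -1.68 with TCE-5002, and the combination leaves all 38 between -0.93 and 0.94.

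WARS1, the cytosolic tryptophan enzyme and an interferon-responsive gene, fell most. It stood at 453 and 455 CPM in the C4-2 R1881 libraries and at 125 and 120.5 CPM with namoline, 147 and 137 CPM with TCE-5002, and 239 and 245 CPM with the combination. No library with an inhibitor reached the R1881 level. The log2 fold change was -1.90 (SE 0.11) with namoline, a 3.74-fold reduction (edgeR adjusted p = 2.86e-08), and -1.68 (SE 0.11) with TCE-5002. CARS1 (cysteine) stood at 198 and 201 CPM with R1881, 75.9 and 75.3 with namoline, 139 and 139.8 with TCE-5002, and 201 and 224 with the combination. Its namoline libraries were the lowest of all 8, a log2 fold change of -1.41 (SE 0.11), and its combination libraries lay at the R1881 level. GARS1 stood at 733 and 701 CPM with R1881, 288 and 258 with namoline, 371 and 318 with TCE-5002, and 743 and 807 with the combination. It fell by 1.41 (SE 0.12) on the log2 scale with namoline. YARS1 (tyrosine) fell by 1.30, and AARS1 by 1.18 on the same scale, and SARS1 was among those past 2-fold. The further falls were of MARS1 (methionine, -0.82), IARS1 (isoleucine, -0.66), EPRS1 (-0.62), TARS1 (threonine, -0.51), NARS1 (asparagine, -0.41) and LARS1 (leucine, -0.35). The calls of NARS1 and LARS1 were lost whenever any 1 of the 4 libraries compared was left out and after an offset for GC content, with values as near 0 as -0.18 and -0.10.

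The cytosolic enzymes that rose with namoline were those for phenylalanine, valine and glutamine. FARSA, the catalytic subunit of the phenylalanine enzyme, stood at 52.1 and 53.6 CPM with R1881, 106 and 126 with namoline, 88.6 and 109 with TCE-5002, and 80.4 and 91.4 with the combination. All 6 inhibitor libraries lay above both R1881 libraries. Its log2 fold change with namoline was 1.12 (SE 0.13, edgeR adjusted p = 1.83e-05). FARSB, its partner subunit, went from 83.9 and 78.6 CPM to 137 and 129 with namoline, a rise of 0.70 (SE 0.14) in log2, and stood at 129.5 and 91.0 with TCE-5002 and 116 and 114 with the combination. VARS1 (valine) stood at 146 and 164 CPM with R1881, 295 and 361 with namoline, 242 and 294 with TCE-5002, and 216 and 223 with the combination. It rose by 1.07 (SE 0.13) with namoline. QARS1, the glutamine enzyme, stood at 100.0 and 97.1 CPM with R1881, 196 and 199.9 with namoline, 162 and 162 with TCE-5002, and 94.9 and 111 with the combination. QARS1 rose by 0.99 (SE 0.11) with namoline, and its combination libraries overlapped the R1881 libraries. HARS1 (0.20), RARS1 (arginine, 0.26) and KARS1 (-0.21) did not pass the test. HARS1 shares 18.3% of its exonic length with other genes.

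**Figure D2:**
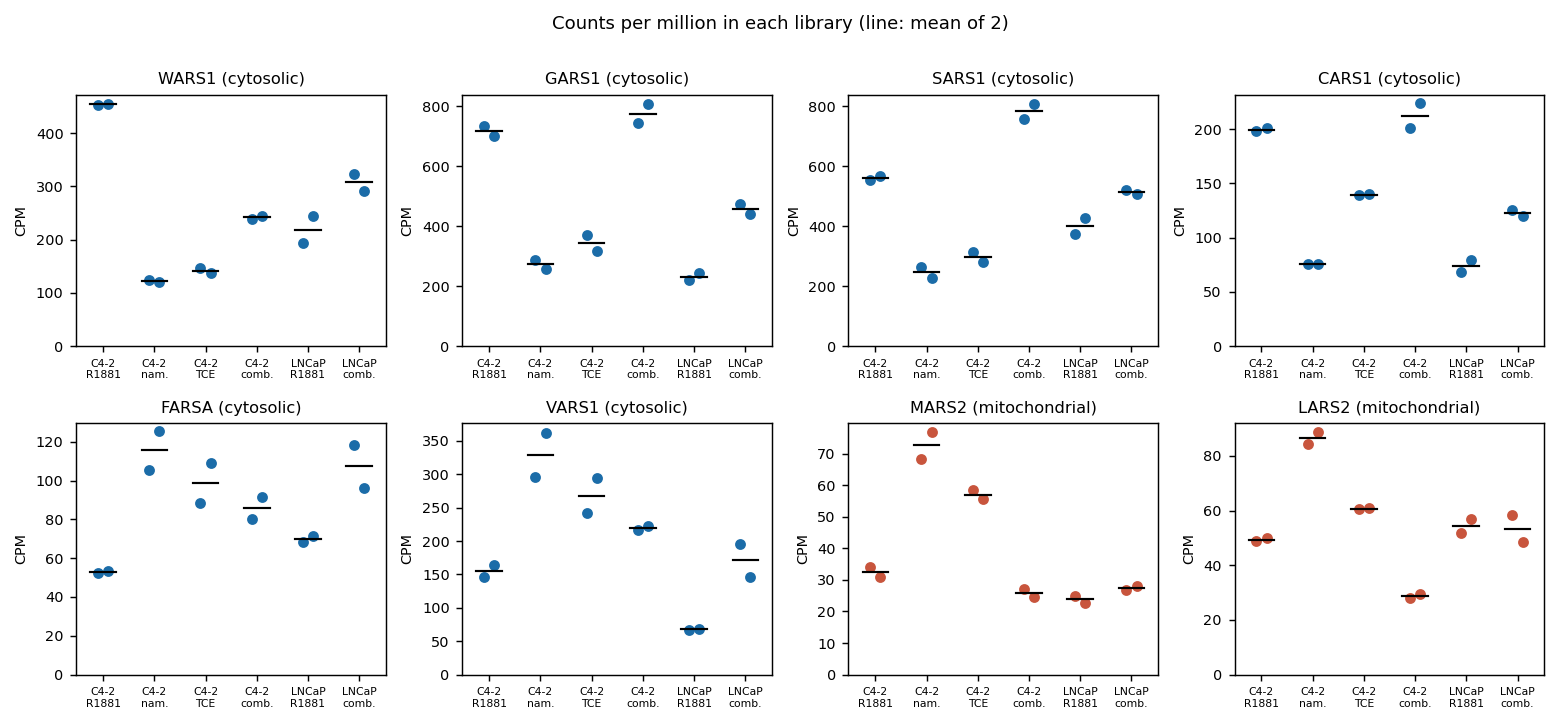
CPM (vertical axes from 0) of 8 genes in each of the 12 libraries, as 2 points a group with a line at their mean. WARS1, GARS1, SARS1 and CARS1 are low with each single inhibitor in C4-2 (nam. is namoline, TCE is TCE-5002, comb. is the combination), FARSA, VARS1, MARS2 and LARS2 are high there, and GARS1, SARS1 and CARS1 lie within or above the R1881 range or next to it with the combination.

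Among the mitochondrial enzymes MARS2, the methionine enzyme encoded by a gene with a single exon, rose most. It stood at 34.0 and 30.8 CPM with R1881, 68.5 and 76.9 with namoline, 58.4 and 55.6 with TCE-5002, and 27.0 and 24.5 with the combination. The 4 single-inhibitor libraries lay above and the combination libraries below both R1881 libraries. The log2 fold change with namoline was 1.15 (SE 0.12, edgeR adjusted p = 8.72e-06), the only mitochondrial change of 2-fold. LARS2 (leucine) stood at 48.7 and 49.9 CPM with R1881, 84.3 and 88.9 with namoline, 60.5 and 60.9 with TCE-5002, and 27.9 and 29.5 with the combination. It rose by 0.80 (SE 0.11) with namoline. The other rises were of EARS2 (glutamate, 0.63), WARS2 (tryptophan, 0.58), PARS2 (proline, 0.55), CARS2 (cysteine, 0.53), TARS2 (threonine, 0.49), VARS2 (valine, 0.43) and YARS2 (tyrosine, 0.38). WARS2 stood at 21.8 and 21.0 CPM with R1881 and 33.0 and 32.0 with namoline, the opposite direction from its cytosolic partner WARS1. It stood at 30.7 and 27.2 CPM with TCE-5002 and 26.2 and 26.8 with the combination, so that all 6 inhibitor libraries lay above both R1881 libraries. IARS2 (0.01), RARS2 (0.01) and NARS2 (0.04) had the smallest changes. Leaving out 1 library ended the calls of PARS2, TARS2, VARS2, YARS2 and CARS2 in at least 1 case, with log2 fold changes between 0.33 and 0.65 across all alternatives. VARS2 shares 22.0% of its exonic length with GTF2H4 on the same strand.

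After the GC offset 21 of the 38 genes rose and 10 fell with namoline, against 13 and 12 without it. That offset moved the median of all genes to 0.13. The class medians became -0.28 and 0.54, so the cytosolic enzymes stayed below and the mitochondrial enzymes above the median of all genes. Without R1881 replicate 1 there were 8 rises and 10 falls.

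With TCE-5002 in C4-2 cells, 10 cytosolic enzymes fell, 4 rose and 5 did not pass the test, and 7 mitochondrial enzymes rose, 0 fell and 9 did not pass. Over all genes 36.5% were called, 19.9% higher and 16.7% lower. The medians were -0.42 for cytosolic and 0.30 for mitochondrial enzymes, against -0.00 for all genes. This comparison used the same R1881 libraries as the namoline comparison, so the values are given side by side and their likeness is not counted as a result. WARS1 (-1.68) and GARS1 (-1.06) fell 2-fold or more, where 11.8% of all genes were called, 5.04% higher and 6.8% lower. SARS1 followed at -0.92, from 554 and 569 CPM with R1881 to 314 and 281 with TCE-5002, with 264 and 228 with namoline and 759 and 809 with the combination. EPRS1 was at -0.92, AARS1 at -0.77, YARS1 at -0.72, IARS1 at -0.63, LARS1 at -0.55, CARS1 at -0.51 and MARS1 at -0.42. FARSA (0.90), VARS1 (0.79), QARS1 (0.72) and FARSB (0.44) rose. Of the mitochondrial enzymes MARS2 rose by 0.81, CARS2 by 0.68, TARS2 by 0.52, PARS2 by 0.45, EARS2 by 0.45, WARS2 by 0.44 and LARS2 by 0.30. The scaffold gene AIMP2 rose by 0.44. With the GC offset 19 members rose and 10 fell, against 12 and 10. In the fit on the 4 libraries compared alone, the calls of WARS2, FARSB, PARS2 and LARS2 were lost, those of LARS1, AIMP2 and EARS2 without R1881 replicate 1, and that of MARS1 without R1881 replicate 2. Without R1881 replicate 1 there were 6 rises and 9 falls, and without R1881 replicate 2 there were 8 and 9. Without TCE-5002 replicate 1 there were 11 rises and 15 falls, and without TCE-5002 replicate 2 there were 16 and 10.

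Compared directly in C4-2 cells, namoline and TCE-5002 differed at 7 of the 38 genes, where 18.2% of all genes were called, 8.91% higher and 9.25% lower, and at 0 of 38 by 2-fold, where 4.95% were called, 2.42% higher and 2.53% lower. CARS1 was lower with namoline by -0.90 (SE 0.11, edgeR adjusted p = 9.16e-05) and YARS1 by -0.58 (SE 0.11). AARS1 (-0.41), MARS1 (-0.39) and TARS1 (-0.36) were also lower, and LARS2 (0.50) and VARS2 (0.47) were higher. The doses were not equal as labelled and that of TCE-5002 is uncertain, so these are differences between the treatments as given. The main direction of the calls depended on the TCE-5002 replicate left out. Most were higher with namoline without replicate 1, and most were lower without replicate 2. The count was 2 in the fit on these 4 libraries alone, with CARS1 and YARS1 as the genes past the threshold, and 17 (11 higher and 6 lower, against 2 and 5) after the GC offset. It was 3 without namoline replicate 1 and 2 without namoline replicate 2.

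With the combination the class medians in C4-2 cells lay closer together than with either inhibitor alone. Against R1881 alone 6 cytosolic enzymes rose, 3 fell and 10 did not pass the test, and 3 mitochondrial enzymes rose, 4 fell and 9 did not pass. The background was the largest of the 3 comparisons, with 50.3% of all genes called, 24.8% higher and 25.6% lower. The share of members called, 18 of 38, was near it, and 0 of 38 changed 2-fold where 21.7% of all genes did, 8.87% higher. The medians were 0.15 for cytosolic and -0.17 for mitochondrial enzymes, against -0.03 for all genes. FARSA (0.67, SE 0.13), AARS1 (0.53), VARS1 (0.48), FARSB (0.47), SARS1 (0.46) and MARS1 (0.30) rose among the cytosolic enzymes. WARS1 fell by 0.93 (SE 0.10, edgeR adjusted p = 5.46e-06), IARS1 by 0.74 and TARS1 by 0.40. IARS1 stood at 899 and 862 CPM with R1881, 579.7 and 549 with namoline, 616 and 525 with TCE-5002, and 514 and 557 with the combination, so that it was low in all 6 inhibitor libraries. RARS2, the mitochondrial arginine enzyme, rose by 0.85 (SE 0.18), from 12.8 and 9.69 CPM with R1881 to 20 and 21.5 with the combination, and stood at 11.96 and 10.98 with namoline and 14.2 and 11.2 with TCE-5002. TARS2 (0.48) and PARS2 (0.47) also rose. LARS2 (-0.81), CARS2 (-0.66), IARS2 (-0.58) and MARS2 (-0.36) fell.

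The fit on the 4 libraries compared called 29 members in place of 18. The GC offset gave 21 rises and 5 falls, against 11 and 7, and moved the median of all genes to 0.14. MARS2 lost its call under that offset at -0.15. MARS2, MARS1, PARS2 and TARS1 lost theirs in each of the 4 fits that left out 1 library, and SARS1, FARSB and VARS1 in at least 1 of them.

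Set against each single inhibitor, the combination was higher at cytosolic and lower at mitochondrial enzymes. Against namoline 10 cytosolic enzymes were higher and 4 lower, and 1 mitochondrial enzyme was higher and 9 lower, with 55.9% of all genes called, 26.9% higher and 29% lower. Against TCE-5002 11 cytosolic enzymes were higher and 1 lower, and 2 mitochondrial enzymes were higher and 8 lower, with 55.1% of all genes called, 26.4% higher and 28.7% lower, and 26.1% of all genes 2-fold. AARS1 was 1.71 higher than with namoline and 1.30 higher than with TCE-5002, from 301 and 283 CPM and from 376 and 393 CPM to 902 and 1024 CPM. SARS1 differed by 1.66 and 1.37 and GARS1 by 1.49 and 1.14. LARS2 was 1.60 lower than with namoline and 1.11 lower than with TCE-5002, and MARS2 was 1.51 and 1.17 lower.

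The interaction asks whether the combination differed from the sum of the changes with each inhibitor on the log2 scale, and it is positive where the combination lay above that sum. It passed the test in 31 of 38 genes, where 53.5% of all genes were called, 25.6% positive and 27.9% negative. Of the 19 cytosolic enzymes 12 were positive and 5 negative, of the 16 mitochondrial enzymes 1 was positive and 13 negative, and of the 3 scaffold genes 0 passed. The medians were 0.67 and -0.64, against -0.01 for all genes. Beyond 1 on the log2 scale were 9 positive and 3 negative cytosolic enzymes and 4 negative mitochondrial enzymes, where 35.3% of all genes were called.

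The 3 largest positive interactions were of WARS1 at 2.64 (SE 0.15, edgeR adjusted p = 6.27e-09), SARS1 at 2.58 (SE 0.16) and GARS1 at 2.55 (SE 0.17). AARS1 (2.48), YARS1 (2.17), CARS1 (1.99), MARS1 (1.54), EPRS1 (1.46) and LARS1 (1.09) followed. The largest negative interactions were of MARS2 at -2.32 (SE 0.18, edgeR adjusted p = 9.69e-08), LARS2 at -1.90 (SE 0.16) and CARS2 at -1.86 (SE 0.19). CARS2 stood at 36.6 and 37.3 CPM with R1881, 51.0 and 56.5 with namoline, 53.1 and 64.9 with TCE-5002, and 24.7 and 22.9 with the combination. EARS2 was also beyond 1, at -1.34. Among the cytosolic enzymes QARS1 (-1.67), VARS1 (-1.38) and FARSA (-1.34) were negative, as was FARSB at -0.66. RARS2 (0.67) was the only mitochondrial enzyme with a positive interaction past the threshold, and its call was lost under the GC offset at 0.38. The call was lost in at least 1 alternative for 11 of the 31 genes. These were PARS2, TARS2, FARSB, HARS1, HARS2, AARS2, RARS2, IARS1, NARS2, NARS1 and SARS2, and none of the genes beyond 1 was among them.

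**Figure D3:**
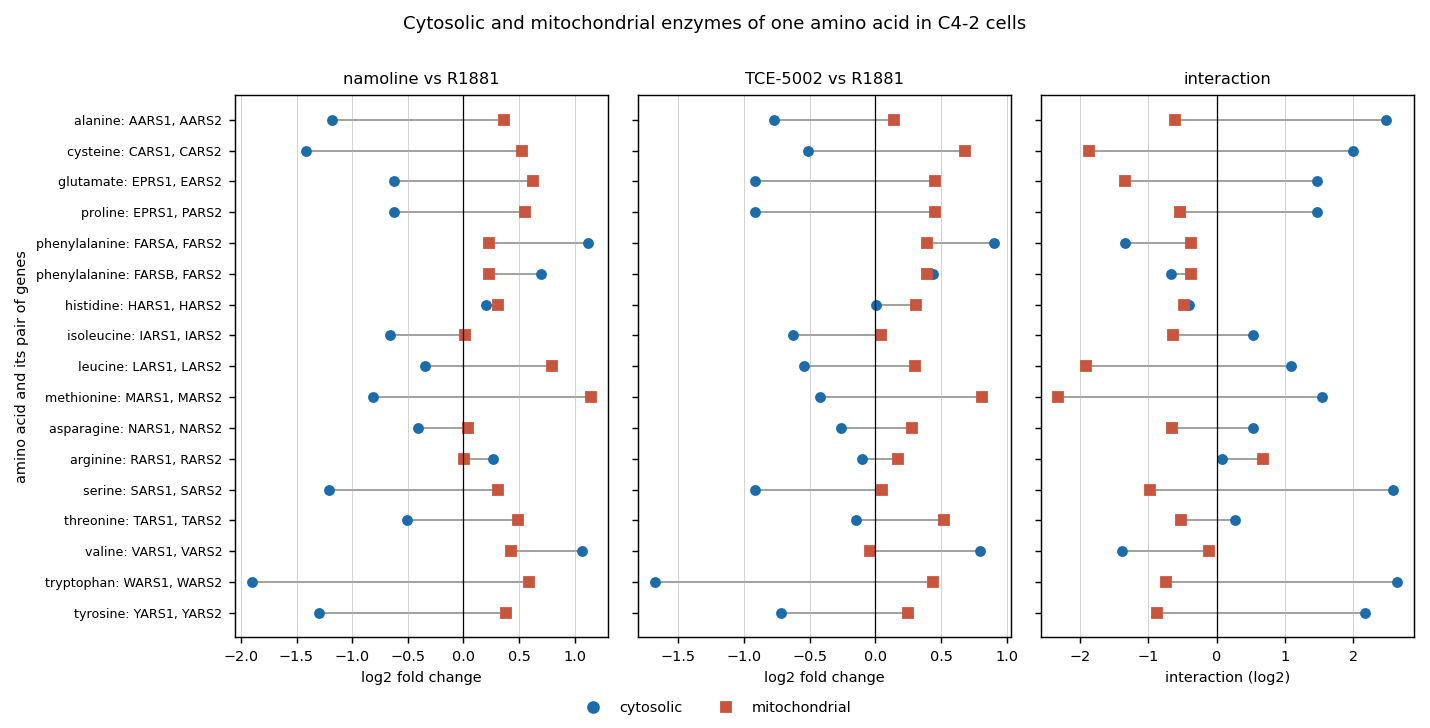
Log2 fold change with namoline and with TCE-5002 and the interaction (horizontal axes) for the cytosolic (circles) and mitochondrial (squares) enzyme of each amino acid (rows) in C4-2 cells. The square lies right of the circle in 13 and 14 of 17 pairs with the single inhibitors and left of it in 13 of 17 in the interaction. The interaction is built from these changes and that with the combination.

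The classes can also be compared by amino acid. The 17 pairs set a cytosolic gene beside the mitochondrial gene for its amino acid, with EPRS1 and FARS2 in 2 pairs each. With namoline the mitochondrial change was above the cytosolic one in 13 of 17 pairs, by a median of 1.14 on the log2 scale, and with TCE-5002 in 14 of 17, by a median of 0.85. The tryptophan pair differed by 2.49 with namoline and the methionine pair, MARS1 and MARS2, by 1.96. The cysteine pair differed by 1.94 with namoline. The exceptions with namoline were the 2 phenylalanine pairs, valine and arginine. In the interaction, which is built from the comparisons with R1881, the mitochondrial gene was below in 13 of 17 pairs (median -1.999 over all pairs). The methionine and cysteine pairs differed most there, by -3.86 and -3.85. With the combination against R1881 the median difference was -0.20, with the mitochondrial gene above in 6 and below in 11 pairs. The pairs were not tested as such, since the genes are not replicates.

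The 2 enzymes that serve both compartments did not move alike. GARS1 followed the cytosolic enzymes, while KARS1 stood at 228 and 225 CPM with R1881, 199 and 198 with namoline, 220.1 and 179 with TCE-5002, and 281 and 279.9 with the combination. KARS1 did not pass the test in the 3 comparisons with R1881 alone in C4-2 (-0.21, -0.19 and 0.28), but its interaction was 0.67 (SE 0.16) and the combination was higher than namoline by 0.49 and than TCE-5002 by 0.47. EPRS1, which charges glutamate and proline, stood at 965 and 902 CPM with R1881, 650.4 and 576 with namoline, 557 and 432 with TCE-5002, and 878 and 928 with the combination. Its combination libraries overlapped the R1881 libraries (-0.07).

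MARS1 stood at 355 and 382 CPM with R1881, 209.6 and 213 with namoline, 280.3 and 269 with TCE-5002, and 440.5 and 482 with the combination. Its 4 groups did not overlap. MARS1 shares 13.3% of its exonic length with other genes, among them DDIT3, the stress-induced factor CHOP, on the opposite strand. The levels of DDIT3 had the same order of groups over a wider range, at 386 and 364 CPM with R1881, 20.5 and 17.3 with namoline, 94.4 and 96.95 with TCE-5002, and 803 and 827 with the combination. Fragments that fell on both genes were left uncounted, and the part of DDIT3 reads in the MARS1 value was not tested.

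Of the scaffold genes, AIMP1 and AIMP2 rose with the combination in C4-2. AIMP2 stood at 44.5 and 50.8 CPM with R1881, 59.1 and 56.9 with namoline, 64.0 and 65.5 with TCE-5002, and 90.6 and 95.1 with the combination, which were the highest libraries. It rose by 0.94 (SE 0.11, edgeR adjusted p = 1.2e-05) with the combination. AIMP1, whose cleaved form is a secreted cytokine, stood at 93.1 and 88.6 CPM with R1881, 105 and 92.8 with namoline, 114 and 78.3 with TCE-5002, and 144 and 138 with the combination. It rose by 0.61 (SE 0.15). EEF1E1 stood at 28.3 and 28.6 CPM with R1881, 21.4 and 22.2 with namoline, 26.3 and 16.9 with TCE-5002, and 23.5 and 24.2 with the combination, and did not pass the test in C4-2. All inhibitor libraries of EEF1E1 were below both R1881 libraries. AIMP2 shares 28.9% of its exonic length with EIF2AK1 on the opposite strand, EEF1E1 18.7% with a read-through gene on its own strand, and AIMP1 11.6% with TBCK on the opposite strand.

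The promoter element shown above can be set beside these values. With namoline 18.7% of all genes were called higher and 16.3% lower. The 7 cytosolic genes that hold TGATGNAA were 0 higher and 7 lower, with a median of -0.82. The 9 with a window and no match were 3 higher, 3 lower and 3 not past the threshold, with a median of 0.20. Those 3 lower genes without a match were EPRS1, SARS1 and WARS1, so WARS1, which fell most, had no match in its window. The 3 genes with no window were 1 higher and 2 lower. With TCE-5002 the 7 genes with a match were 0 higher and 5 lower (median -0.51), and the 9 without were 3 higher and 3 lower (median -0.11). Of all genes 19.9% were higher and 16.7% lower there. With the combination the 7 were 2 higher and 2 lower (median 0.06) and the 9 were 3 higher and 1 lower (median 0.24). Of all genes 24.8% were higher and 25.6% lower there. In the interaction, built from the same values, 6 of the 7 genes with a match were positive (median 1.54). Of the 9 without, 4 were positive and 4 negative (median 0.08). Over all genes 25.6% were called positive and 27.9% negative. In the LNCaP libraries given both inhibitors these groups of genes were close, at medians of 0.73 and 0.60. No test was made of genes grouped by the motif, and calls among all other genes that hold it were not counted. The part of ATF4 in these values was not tested.

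With namoline the other genes of tRNA charging and protein synthesis did not fall as a whole. Of all genes 35.0% were called with namoline, 18.7% higher and 16.3% lower. Of 16 other tRNA charging and handling genes, namoline raised 2 and lowered 4, and 10 did not pass the test. The share called of these 16 genes was 37.5%, near that background. Among them XPOT, the exporter of tRNA from the nucleus, was at -0.85 with namoline and at -0.54 under TCE-5002, both past the threshold, and its interaction was 1.37. In the comparisons with the LNCaP libraries the values of these 16 genes lay near those of the cytosolic enzymes. With the combination in LNCaP 10 rose and 3 fell (median 0.59). With R1881 alone 10 were higher and 3 lower in C4-2 (median 0.55). The effect of the combination was higher in C4-2 for 2 and lower for 9 (median -0.65). The shares called of the 16 genes were 81.2%, 81.2% and 68.8%, against 56.2%, 76.8% and 47.6% of all genes. All genes were 28.0%, 37.8% and 21.7% higher and 28.2%, 39.0% and 25.9% lower. The share with R1881 alone was thus near that of all genes. Of 6 cytosolic elongation genes tested, 3 rose and 0 fell with namoline, with a median of 0.35, and of 10 mitochondrial translation factors 2 rose and 0 fell, with a median of -0.02. TUFM, the mitochondrial elongation factor, rose by 0.42 with namoline and 0.72 with TCE-5002, and its interaction was -1.02.

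Of 10 genes of amino acid sensing and synthesis, 7 fell and 1 rose with namoline (median -0.85). With TCE-5002 7 fell and 0 rose (median -0.67), and with the combination 8 fell and 0 rose (median -0.80). Of all genes 16.3%, 16.7% and 25.6% were called lower and 18.7%, 19.9% and 24.8% higher in these comparisons. ASNS, asparagine synthetase, was at -1.91, -1.38 and -0.77 in these comparisons, with an interaction of 2.52. ATF4 itself was at -1.23, -0.75 and -0.54, with an interaction of 1.44. Unlike most cytosolic synthetases, the serine synthesis genes PSAT1 (-2.34) and PSPH (-2.25) were at their lowest with the combination, and their interactions were 0.23, not past the threshold, and -0.90. EIF2AK4, the kinase GCN2 that senses uncharged tRNA, rose by 0.63 with namoline.

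In the libraries labelled LNCaP the combination raised the cytosolic class. There 17 of 19 cytosolic enzymes rose, 0 fell and 2 did not pass the test (AARS1 at 0.20 and HARS1 at -0.11). Of the 16 mitochondrial enzymes 5 rose, 4 fell and 7 did not pass, and all 3 scaffold genes rose. Of all 17565 genes tested 56.2% were called, 28.0% higher and 28.2% lower, and the median of all genes was -0.00. The cytosolic median was 0.66, the mitochondrial median 0.11 and the scaffold median 0.91. At 2-fold or more 4 cytosolic enzymes and 1 mitochondrial enzyme rose, where 18.7% of all genes were called, 7.44% higher.

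FARSB rose most in these libraries, from 83.5 and 94.5 CPM with R1881 to 222 and 231 with the combination, which is 1.40 in log2 (SE 0.11, edgeR adjusted p = 9.58e-13). VARS1 went from 66.5 and 68.5 CPM to 196 and 146, also 1.40 (SE 0.12), and stood at 1.17 without combination replicate 1. NARS1 went from 135 and 138 CPM to 283 and 294, a change of 1.14 (SE 0.10). GARS1 rose by 1.04 (SE 0.11), from 222 and 242 CPM to 474 and 440.3. RARS2 rose by 1.09 (SE 0.12), from 31.9 and 26.6 CPM to 57.2 and 62.7. These 5 are the enzyme genes that rose 2-fold or more, so that their combination and R1881 libraries lay apart follows largely from that choice. The falling enzymes were all mitochondrial. PARS2 fell by 0.90 (SE 0.14), from 30.6 and 35.7 CPM to 18.7 and 15.3. VARS2 fell by 0.84 (SE 0.11), from 166 and 137 CPM to 83.9 and 79.0. FARS2, with 11.3 and 10.6 CPM against 7.70 and 6.75, fell by 0.54 (SE 0.18), and CARS2 by 0.41. FARS2 and CARS2 lost their calls under the GC offset. That offset gave 29 rises and 2 falls, against 25 and 4, with the median of all genes at 0.14.

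WARS1 rose by 0.55 in these libraries, from 193 and 244 to 324 and 292 CPM, and WARS2 was at 0.02, with 22.6 and 27.2 CPM against 23.3 and 25.1. KARS1 rose by 0.41 from 152 and 186 to 218 and 214 CPM, EPRS1 by 0.60 from 298 and 354 to 471 and 481 CPM, MARS1 by 0.59 from 199 and 207 to 311 and 278 CPM and QARS1 by 0.66 from 90.3 and 94.4 to 152 and 129 CPM. The scaffold genes rose by 0.91 (AIMP1, from 62.1 and 71.2 to 108 and 132 CPM), 0.91 (AIMP2, from 16.3 and 18.7 to 34.0 and 29.1 CPM) and 0.84 (EEF1E1, from 13.4 and 13.2 to 21.5 and 24.1 CPM). All 38 genes stayed on the same side of the threshold without combination replicate 1, the library whose inner name lacks TCE-5002. Without R1881 replicate 1 the calls of SARS1, KARS1, FARS2 and CARS2 were lost, with values of 0.32 and 0.27 for the first 2 as the lowest over all alternatives.

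The remaining genes that changed most in C4-2 can be followed in the libraries labelled LNCaP. FARSA went from 68.4 and 71.7 CPM with R1881 to 119 and 96.4 with the combination. CARS1 went from 68.5 and 79.6 to 125.5 and 120.2 CPM, and SARS1 from 376 and 427 to 521 and 508 CPM. These 3 cytosolic genes rose by 0.67, 0.79 and 0.42 on the log2 scale, in that order. Of the mitochondrial enzymes, MARS2 went from 24.96 and 22.8 to 26.7 and 28.0 CPM, LARS2 from 51.9 and 56.9 to 58.2 and 48.5 CPM, and CARS2 from 39.1 and 35.2 to 25.6 and 28.1 CPM. MARS2 (0.25) and LARS2 (0.03) did not pass the test, and CARS2 fell by 0.41.

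With R1881 alone most cytosolic enzymes and all 3 scaffold genes were higher in C4-2 than in the libraries labelled LNCaP. Of the 38 genes 22 were higher and 7 lower, where 76.8% of all 19763 genes tested were called, 37.8% higher and 39.0% lower. The share of members called, 76.3%, was near that of all genes. The cytosolic median was 0.68, with 13 higher and 2 lower, and the mitochondrial median was -0.02, with 6 higher and 5 lower. GARS1 was 1.66 higher (SE 0.09, edgeR adjusted p = 2.12e-14), NARS1 1.64 higher (425 and 411 CPM in C4-2) and HARS2 1.59 higher, with 63.1 and 58.0 CPM against 21.2 and 19.8. In C4-2 HARS2 stood at 76.6 and 75.2 CPM with namoline, 80.5 and 69.0 with TCE-5002 and 67.2 and 69.1 with the combination, and in the LNCaP combination libraries at 29.9 and 28.0. NARS1 stood at 328.5 and 306.5 CPM with namoline and 399.9 and 298 with TCE-5002 in C4-2, so that all of these were above the LNCaP libraries. HARS2 shares 21.8% of its exonic length with HARS1 and ZMAT2. VARS2 was 2.13 lower in C4-2, at 34.4 and 33.5 CPM, PARS2 1.57 lower at 10.7 and 11.1 CPM, and RARS2 1.34 lower. The lines also differed in the marker genes given above, and line and any other difference between these sets of libraries cannot be told apart.

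The effect of the combination differed between the lines in 27 of 38 genes, where 47.6% of all genes were called. It was lower in C4-2 for 23 of them and higher for 4, against 25.9% and 21.7% of all genes, and the median of all genes was -0.10. Among the cytosolic enzymes 14 were lower and 0 higher (median -0.73), and among the mitochondrial enzymes 7 were lower and 4 higher (median -0.38). WARS1 differed by -1.54 (SE 0.14, edgeR adjusted p = 2.8e-09), since it fell in C4-2 and rose in the libraries labelled LNCaP. IARS1 differed by -1.44 (SE 0.12) in the same manner, with 1013 and 1153 CPM in the LNCaP R1881 libraries and 1625 and 1638 CPM with the combination. NARS1 differed by -1.32 (SE 0.11), at -0.13 in C4-2 (375 and 399.8 CPM with the combination) and 1.14 in the other line. TARS1 fell by 0.40 in C4-2 and rose by 0.73, a difference of -1.17, and IARS2 fell by 0.58 and rose by 0.54, also a difference of -1.17. PARS2 differed by 1.32 (SE 0.19) the other way, with a rise of 0.47 in C4-2 and a fall of 0.90, and VARS2 (1.07) and FARS2 (0.74) were next. With the combination in C4-2, PARS2 stood at 15.6 and 15.1 CPM, VARS2 at 41.4 and 42.6, and FARS2 at 11.9 and 13 against 9.65 and 10.9 with R1881. The single inhibitors in C4-2 left PARS2 at 15.5 and 16.9 CPM with namoline and 14.1 and 15.8 with TCE-5002, above both R1881 libraries. VARS2 stood at 45.4 and 47.2 CPM with namoline and 31.3 and 34.9 with TCE-5002, and FARS2 at 12.3 and 12.1 and at 14.9 and 11.96.

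**Figure D4:**
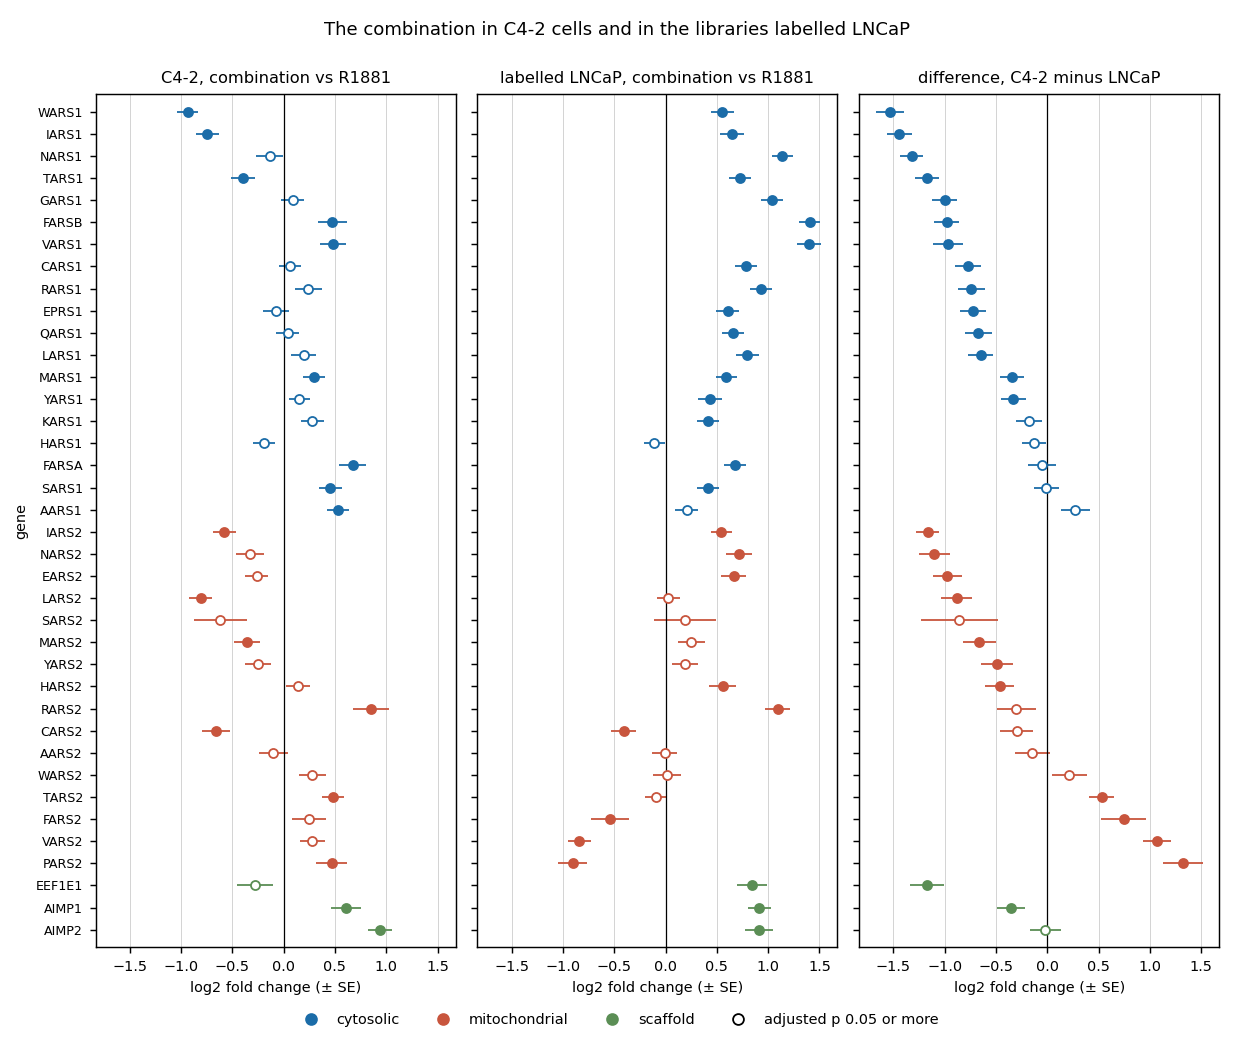
Log2 fold change with the combination (horizontal axis) of the 38 genes (rows) in C4-2 cells, in the libraries labelled LNCaP and the difference between them. Points are fitted values, bars are 1 SE and open points have an adjusted p of 0.05 or more. All cytosolic enzymes but HARS1 (-0.11) lie right of 0 in LNCaP, with a median of 0.66, and WARS1 and IARS1 have the largest differences, at -1.54 and -1.44.

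The combination called 5 genes in opposite directions in the lines (IARS1, TARS1, WARS1, IARS2 and PARS2), 8 as higher in both (FARSA, FARSB, MARS1, SARS1, VARS1, RARS2, AIMP1 and AIMP2) and 1 as lower in both (CARS2). Of the 15283 genes tested in both lines 13.5% were called in opposite directions, 9.06% as higher in both and 8.32% as lower in both, against 13.2%, 21.1% and 2.63% of the members. The share of members called in opposite directions was thus near that of all genes. These counts come from separate libraries in each line. AARS1 (0.27), SARS1 (-0.01), FARSA (-0.05), KARS1 (-0.18), RARS2 (-0.30) and AIMP2 (-0.02) were among the 11 members whose difference did not pass the test. Without LNCaP combination replicate 1 the count was 28, with AARS1 (0.40) and CARS2 (-0.38) then past the threshold and MARS1 (-0.28) no longer past it. The calls of AIMP1, YARS1, YARS2, MARS1 and HARS2 were lost in from 2 to 11 of the alternatives.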

How the data were processed

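Polyadenylated RNA of 12 libraries was sequenced in paired ends. Per the labels and the study's methods, the authors removed low-quality bases and adapters (TrimGalore) before alignment by STAR to GRCh38. The deposited values are raw counts of fragments per gene from featureCounts v1.5.0-p1 with Ensembl 83, without strand and with fragments on more than 1 gene left out.

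Low-count genes were dropped by filterByExpr and TMM gave the scaling. Each contrast was a quasi-likelihood test in edgeR (version 4.0.16, under R 4.3.3 with limma 3.58.1), and p-values were adjusted by Benjamini-Hochberg across every gene tested. Contrasts within C4-2 used its 8 libraries together, the LNCaP comparison on its 4, and comparisons of the lines on the 8 with R1881 alone or the combination. The SE was obtained by dividing the size of the log2 change by the root of the F statistic, and CPM used TMM factors of all 12 libraries. A 2-fold change is a log2 fold change of at least 1. In simulated counts where 200 genes had a log2 change of 2, 91.5% were recovered for namoline (17010 genes) and 73.5% for the interaction (16978 genes).

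Gene coordinates and lengths came from the count files (GRCh38, 1-based), promoters from RefSeq. The treatment field of the labels describes siRNA work, so groups follow the titles. The members and lists were chosen with earlier results of these data known. Values in every library are given for up to 3 members rising and 3 falling most in each of 7 comparisons and for 10 genes whatever their values (GARS1, KARS1, EPRS1, MARS1, WARS1, WARS2, QARS1, AIMP1, AIMP2 and EEF1E1). Protein sequences and a genome were not used here. As alternatives, the fits were repeated with DESeq2 1.42.0, RLE scaling, low-count genes kept, a replicate block, a GC offset alone and with the block, the 4 libraries compared, and leaving out each library. Markers of the mesenchymal, luminal, epithelial and leukocyte lists were used to check the labels.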

Additional observations from a re-analysis of the deposited data

Results flagged for a closer look

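The effect of the combination differed between C4-2 and the libraries labelled LNCaP, by a test of the difference itself, in 27 of the 38 genes. At 2-fold or more it differed in 10 genes, 8 of them lower in C4-2 (WARS1 by -1.54, IARS1 by -1.44, NARS1 by -1.32, TARS1 by -1.17, EEF1E1 by -1.17, IARS2 by -1.17, NARS2 by -1.10 and GARS1 by -1.002 on the log2 scale) and 2 higher (VARS2 by 1.07 and PARS2 by 1.32). Of all genes 47.6% differed, and 25.3% at 2-fold or more (11.4% higher and 13.9% lower in C4-2), so the members' count at 2-fold is near the share of all genes. The lines also differed in vimentin and E-cadherin, as given above, and the part of that difference in these values was not tested.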

How the results depend on the processing

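Of 115 counts of members recomputed under an alternative, 107 lay within 1.5 times the reported one. The combination against R1881 in C4-2 gave 29 members in the fit on the 4 libraries compared (18 reported). Namoline against TCE-5002 gave 17 with the GC offset, 16 with the GC offset and replicate block, and 2 on the 4 libraries compared (7 reported). The cause was not tested.

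Leaving out 1 library at a time gave 18 to 21 members for namoline, 15 to 26 for TCE-5002, 12 to 14 for the combination, 21 to 25 and 20 to 29 for the combination against namoline and against TCE-5002, 2 to 14 for namoline against TCE-5002, 23 to 35 for the interaction, 25 to 29 for the libraries labelled LNCaP, 28 to 31 for the lines with R1881 alone and 23 to 28 for the difference of the combination effect. The lone library left in a group was taken to vary like the others.

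Of the 238 called log2 fold changes in 10 comparisons, 179 stayed past the threshold in every alternative and 0 turned direction. Same-numbered replicates deviated together in most pairs of C4-2 groups (r over 10400 genes from 0.44 to -0.02) and not between the LNCaP groups (0.06). Between groups of different lines r ran from -0.56 to -0.06. These values do not settle whether the numbers pair the samples in C4-2, and the main fits have no replicate block. With the replicate block the counts were 29 for namoline, 24 for TCE-5002, 23 for the combination, 33 for the interaction and 29 for LNCaP, none of them over 1.5 times the reported count. The 2 libraries a group limit the precision of small changes, such as those of SARS2 with 43 to 128 counts.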
